A study of Rattus norvegicus with 119 samples.

Results

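The comparison described here set bladder urothelium of rats given pioglitazone at 63 mg/kg/day for 3 days against urothelium of rats given vehicle for the same time. Its 20 arrays were chosen by treatment, time and sex as the labels give them, out of 119 arrays in the table, of which 116 passed the submitters' quality control. All 20 passed. They fell into 4 groups of 5 Sprague-Dawley rats: vehicle females, vehicle males, treated females and treated males. Vehicle rats received methylcellulose by mouth each day, and treated rats received pioglitazone hydrochloride at 63 mg/kg/day in the same volume. Each array was a separate animal, since a group held 10 rats of a sex and the tissue of 5 of them was profiled. The urothelium was scraped off the opened bladder 1 day after the last dose. The rats' ages are not given in the labels. The whole study also held rosiglitazone at 10 mg/kg/day, pioglitazone at 16 mg/kg/day (13 in the series' design text) and later times of 28 and 90 days.

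Pioglitazone is a thiazolidinedione, a drug class that activates PPAR gamma, a nuclear receptor known as the master regulator of fat cell formation and also present in urothelium, where it takes part in differentiation. MicroRNAs (miRNAs) are short RNAs that pair with messenger RNAs, mainly through bases 2 to 8 of the miRNA, called the seed, and lower their output. Urothelial cells, like other epithelia, carry the miR-200 family together with miR-205 and miR-203, while muscle, blood and connective tissue each bring miRNAs of their own. The comparison asks which urothelial miRNAs differed after the shortest exposure to the higher pioglitazone dose.

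Rat sequences are from RefSeq (build GRCr8), where 31 of the 33 miRNAs looked up had an entry. Where the array's name gives no arm of the hairpin, the arm was taken as the major one from general knowledge. Each is written 5′ to 3′ with its seed in capitals. The first set holds the blood cell miRNAs that lead the lower side of the comparison. miR-144 lies at chr10:63459446-63459465 and miR-451 at chr10:63459585-63459606, on the same strand with 119 bases between them.
miR-451: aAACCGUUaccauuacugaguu
miR-144: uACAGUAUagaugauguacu
miR-223: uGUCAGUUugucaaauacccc
The miR-181 family is shown because 2 of its members are among the 10 higher miRNAs with the smallest p. All 4 share the seed ACAUUCA. Counted from 1 at the 5′ end, miR-181d differs from miR-181b by C12U. miR-181b lies at chr13:52037263-52037285 and miR-181d at chr19:40888484-40888506.
miR-181a: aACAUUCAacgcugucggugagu
miR-181b: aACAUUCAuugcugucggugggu
miR-181c: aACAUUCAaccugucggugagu
miR-181d: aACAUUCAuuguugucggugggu
The let-7 family is shown because let-7e, almost identical in sequence to its relatives, had the smallest p of any miRNA in females. All 7 members looked up share the seed GAGGUAG, and let-7e (chr1:67350243-67350264) differs from let-7a by U9G, the base right after the seed.
let-7a: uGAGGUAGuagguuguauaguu
let-7d: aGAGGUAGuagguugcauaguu
let-7e: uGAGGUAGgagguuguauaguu
The last pair had no overlap between treated and vehicle males, the only 2 of 301 miRNAs (0.664%) to lie wholly higher with treatment in males. How many would do so by chance was not tested. Both lie on the minus strand of the X chromosome, miR-743a at chrX:150444098-150444119 and miR-878 at chrX:150474263-150474284.
miR-743a: gAAAGACGccaaacuggguaga
miR-878: gCAUGACAccauacuggguaga

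The label of the tissue was checked against its markers. In vehicle rats the brightest miRNA was miR-21, an abundant miRNA of many tissues, at 14.47 ± 0.83 log2 units (SD, n = 10). let-7c followed at 14.32 and let-7a at 14.24. The epithelial miR-200a was the ninth brightest of the 301 at 13.05 ± 1.15 (SD, n = 10), with miR-200b at 12.71, miR-205 at 11.98 and miR-203 at 11.87. miR-143, typical of smooth muscle and connective tissue, was next at 12.82 but ranged from 7.36 to 16.87 between vehicle rats. These epithelial miRNAs were thus among the bright miRNAs of the tissue, and miR-143 was present at levels that differed widely between animals.

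The arrays themselves were not alike in overall brightness. Medians ran from 3.74 to 5.66 log2 units, and 4 of the 20 arrays lay below 5, all from females: vehicle replicates 1 and 2 and treated replicates 3 and 5. The other 16 started at 5.20. Replicate 1 of the vehicle females had the lowest median and the lowest correlation with the mean of the 20 arrays (r = 0.845). Array medians did not go with the treatment, with a mean of 5.27 in treated and 5.23 in vehicle rats and an exact two-sided permutation p = 0.909 over the 63504 relabellings within sex. Vehicle male replicate 1 stood apart in another way: for 16 of the 301 miRNAs it lay more than 2 log2 units above every one of the other 19 arrays. Vehicle female replicate 1 did so for 1 miRNA and no other array did. Among the 16 were miR-211, at 8.07 beside 3.13 to 3.58 on the other arrays, and the minor strands let-7b* and let-7e*. Vehicle male replicate 3 was the dimmest male array for all 13 epithelial strands measured, and list values for males are given below without either array where they moved.

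No miRNA passed the threshold between treated and vehicle rats. Of 301 miRNAs tested with sex as a block, 0 (0%) had a limma adjusted p under 0.05, and the smallest adjusted p was 0.804. Without adjustment, 13 miRNAs (4.32%) had a p under 0.05, 12 of them higher (3.99%) and 1 lower (0.332%) in treated rats. That share is no larger than the 5% which the threshold itself would give with no difference at all. The median difference over all miRNAs was 0.06 log2 units, with 180 positive and 121 negative values. The largest difference of the 301 in size was that of miR-451.

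The data set a bound on how large an undetected difference could be. The 95% interval of a miRNA's difference reached a median of 0.71 log2 units to either side, and from 0.21 to 2.44 across miRNAs. For 147 of the 301 miRNAs the interval lay wholly within 1 log2 unit (a doubling) of 0. Among the 154 miRNAs with a mean above 5, only 41 were bounded that tightly. The others could have differed by more than a doubling without being called.

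**Figure D1:**
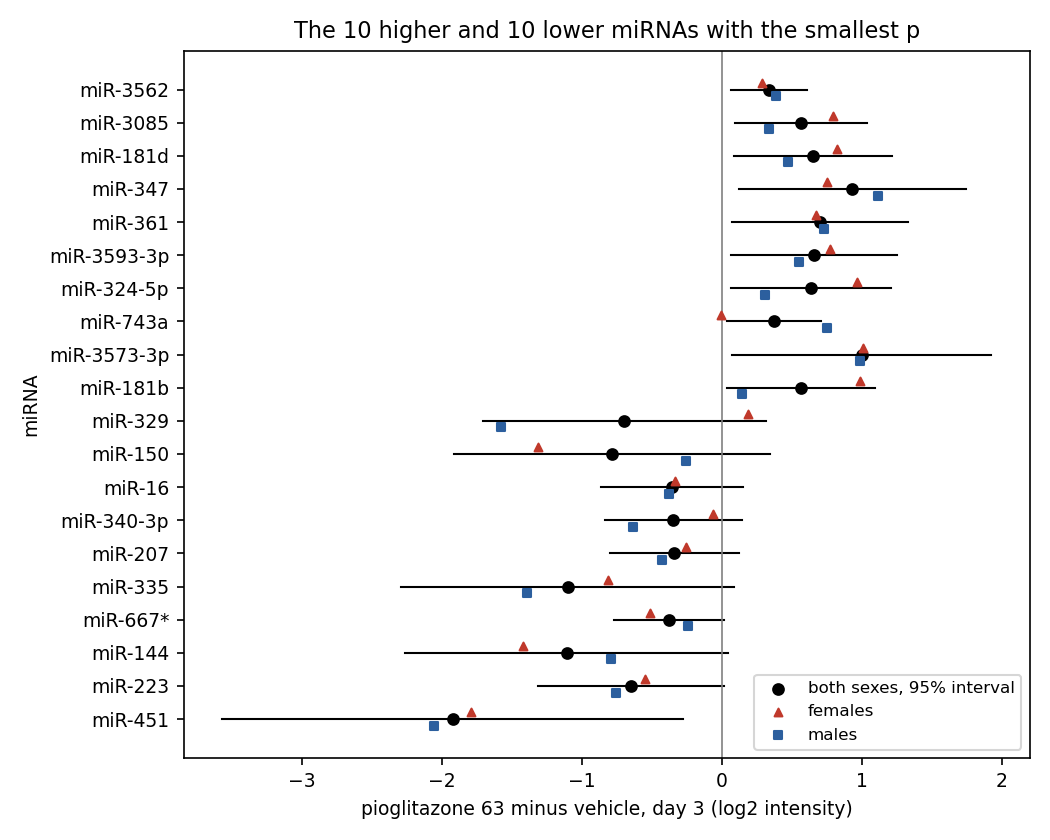
Treated minus vehicle difference in log2 intensity (horizontal axis) for the 10 higher and 10 lower miRNAs with the smallest p (vertical axis). Black points and lines are the estimate over both sexes with its 95% interval, red triangles are females and blue squares are males. miR-451 is farthest from 0 at -1.92, its interval is among the widest, and only it and the 10 higher miRNAs have intervals clear of 0 before adjustment.

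Of the 10 lower miRNAs with the smallest p, 4 are miRNAs of blood cells. Of all 301 miRNAs, 3 are on the red cell list and 5 on the leukocyte list. miR-451, the dominant miRNA of red blood cells, had the largest difference of all at -1.92 log2 units. The other three were miR-144, from the same red cell transcript, miR-223, a miRNA of neutrophils and other myeloid cells, and miR-150, typical of mature lymphocytes. None of them passed the limma test. Only miR-451 had an unadjusted limma p under 0.05 (0.0244), and miR-150 entered the 10 at 0.162.

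In vehicle females, miR-451 read 4.12, 9.26, 7.99, 7.64 and 9.68 log2 units, and in treated females 8.38, 7.87, 4.59, 5.53 and 3.38. In vehicle males it read 11.15, 9.02, 11.90, 11.95 and 10.66, and in treated males 7.72, 5.95, 10.34, 10.30 and 10.09. Male means exceeded female means in both treatments, and treated and vehicle rats overlapped in each sex. The treated rats lay below the vehicle mean of their sex in 8 of 10 cases. The difference was -1.79 in females and -2.06 in males, and over both sexes -1.92 (SE 0.79, 95% interval -3.57 to -0.28, limma adjusted p = 0.804).

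For miR-144, vehicle females read 8.72, 10.26, 5.61, 7.34 and 7.02 log2 units and treated females 5.74, 6.10, 4.50, 7.99 and 7.52. Vehicle males read 6.88, 7.44, 9.26, 9.66 and 7.69 and treated males 7.38, 6.58, 8.24, 7.84 and 6.92. Groups overlapped in both sexes, and 8 of 10 treated rats lay below the vehicle mean of their sex. The difference over both sexes was -1.11 (SE 0.55, limma adjusted p = 0.804), and -0.51 without the 4 arrays of low median. The minor strand miR-144* lay near the floor of the array, at 4.32 in vehicle and 4.03 in treated rats. All 3 red cell miRNAs of the table had a negative difference in females and in males, with a median of -1.11 (-0.51 without the arrays of low median) beside 0.06 over all 301. In females alone the red cell median was -1.42, but only -0.07 without the arrays of low median. In males, where no array was of low median, it was -0.79. That male median was -1.12 without vehicle replicate 1, -0.52 without vehicle replicate 3 and -0.43 without vehicle replicate 4.

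miR-223 ranged from 6.66 to 8.18 with a median of 7.52 in vehicle rats, and from 5.53 to 8.53 with a median of 6.79 in treated rats. Its brightest and its dimmest array were both from treated males, so the groups overlapped. The difference was -0.65 (SE 0.32, limma adjusted p = 0.804). miR-150 ranged from 3.70 to 7.93 in vehicle rats and from 3.32 to 7.69 in treated rats, and its difference of -0.79 (SE 0.54) was mostly that of females, at -1.31 against -0.26 in males. Of the 5 leukocyte miRNAs, 4 had a negative difference over both sexes, and the median was -0.49. The exception was miR-150*, the minor strand, at 0.63.

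The red cell list summed to between 8.31 and 10.86 log2 units (median 8.83) in vehicle females and between 5.96 and 8.65 (median 8.28) in treated females. In males it summed to between 9.48 and 12.24 (median 11.23) with vehicle and between 7.40 and 10.67 (median 10.27) with treatment. The leukocyte list summed to 8.98 to 11.12 and 8.63 to 10.13 in vehicle and treated females, and to 9.10 to 9.95 and 8.62 to 9.93 in males. Its medians were 9.44 and 9.22 in females and 9.52 and 9.15 in males. In scraped tissue, fewer cells of a type and less RNA per cell cannot be told apart. How much blood each scraping held was not recorded in the labels, and its part in these values was not tested.

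**Figure D2:**
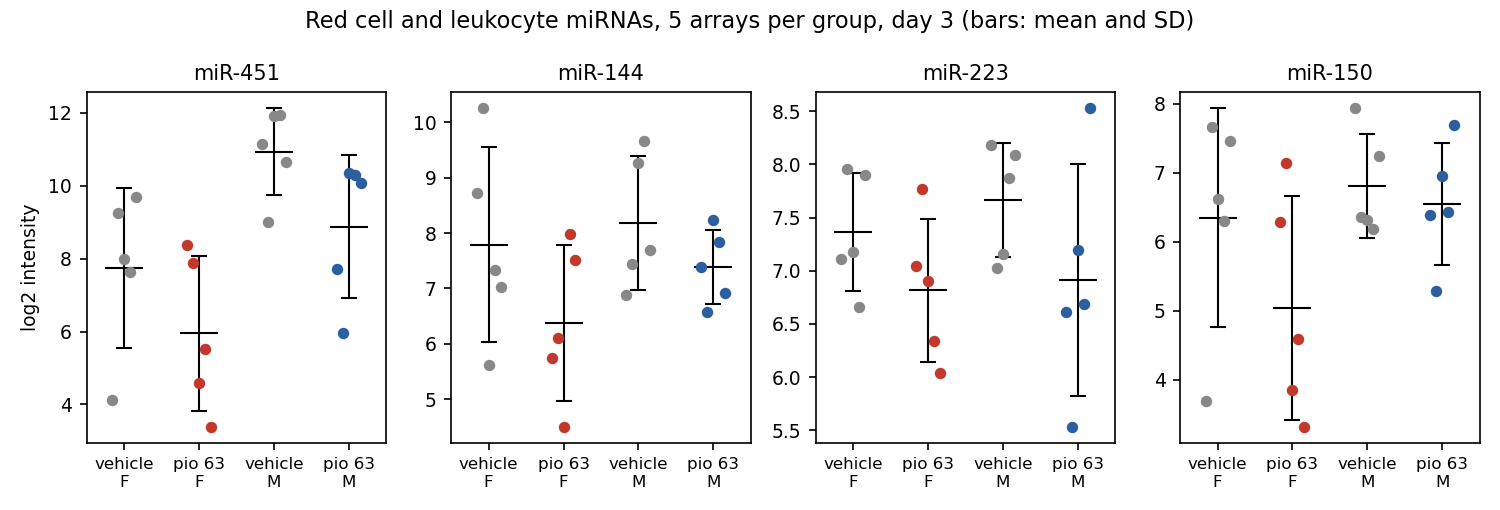
Log2 intensity (vertical axes, each with its own range) of miR-451, miR-144, miR-223 and miR-150 on each of the 5 arrays per group, with the group mean and SD as bars. Treated and vehicle arrays overlap in every panel, and the means of miR-451 are higher in males than in females in both treatments.

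The miR-181 family, known from lymphocyte development and signalling and expressed in many tissues, had more positive than negative differences. Of its 5 measured strands, 4 had a positive difference over both sexes, with a median of 0.55 beside 0.06 over all miRNAs. That median was 0.31 after quantile normalization, 0.25 without the 4 arrays of low median, and 0.33 as the mean of the sexes without vehicle male replicate 1. In females alone it was 0.28, and 0.03 without the arrays of low median. 0 of the 5 passed the adjusted threshold and 2 had an unadjusted p under 0.05 in the higher direction, against 3.99% of all miRNAs.

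miR-181d read 4.73, 5.23, 5.99, 6.71 and 5.99 log2 units in vehicle females and 6.09, 6.29, 6.84, 5.96 and 7.58 in treated females. It read 5.62, 6.10, 5.01, 5.80 and 6.24 in vehicle males and 6.10, 7.15, 6.01, 5.95 and 5.92 in treated males. All 10 treated rats lay above the vehicle mean of their sex, yet the groups overlapped in each sex. The difference was 0.65 (SE 0.27, limma adjusted p = 0.804), and 0.25 without the 4 arrays of low median.

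miR-181b, which shares all but 1 base with miR-181d, read 5.38, 7.08, 6.52, 7.08 and 6.71 in vehicle females and 6.92, 7.0, 7.86, 7.59 and 8.34 in treated females. In males the vehicle values were 6.49, 6.93, 7.0, 6.89 and 6.58 and the treated values 6.62, 7.73, 6.74, 6.59 and 6.92. In females the difference was 0.99 (SE 0.34, limma adjusted p = 0.795), and 0.40 without the arrays of low median, against 0.14 in males. Over both sexes it was 0.56 (SE 0.25), and 0.24 without the arrays of low median. The brightest treated female arrays, replicates 3 and 5, were both of low median, and the dimmest vehicle array was replicate 1. The table does not show how far the probes tell these nearly identical sequences apart.

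miR-181c differed by 0.55 (SE 0.34), with 0.15 in females and 0.96 in males, and miR-181a by 0.25 (SE 0.26). The minor strand miR-181a-1* differed by -0.04.

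**Figure D3:**
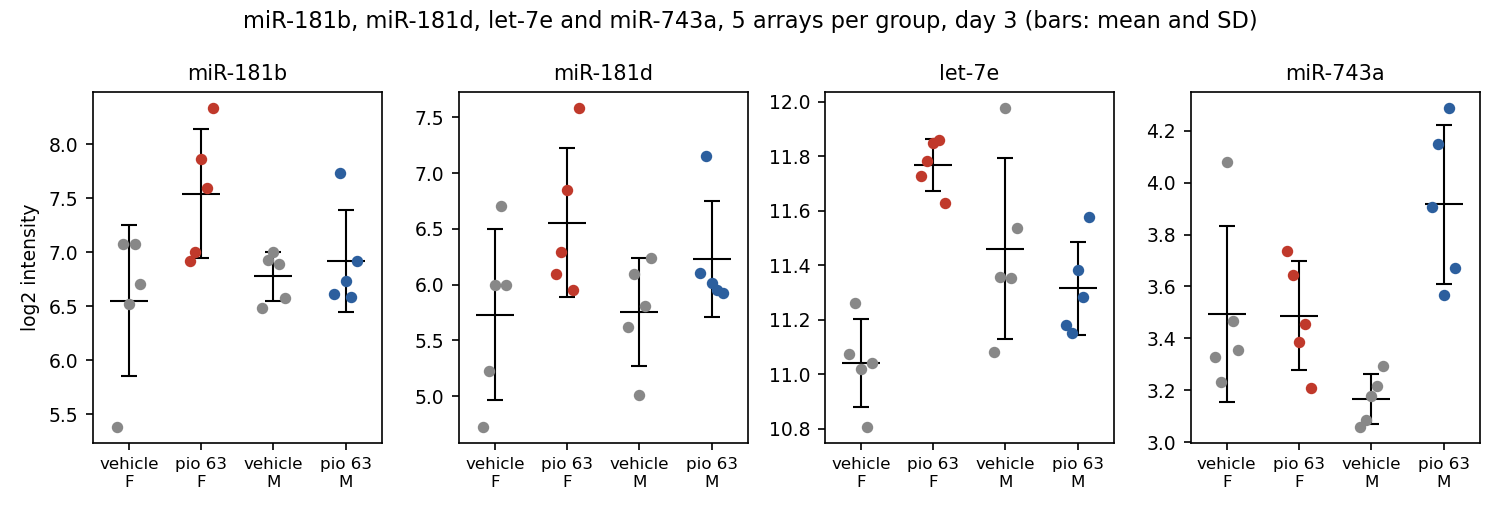
Log2 intensity (vertical axes, each with its own range) of miR-181b, miR-181d, let-7e and miR-743a on each of the 5 arrays per group, with the group mean and SD as bars. let-7e separates treated from vehicle females without overlap and overlaps in males, and miR-743a separates treated from vehicle males at levels near the floor.

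The other 8 of the 10 higher miRNAs with the smallest p had differences from 0.34 to 0.999, each with a limma adjusted p of 0.804. miR-361 ranged from 5.83 to 8.53 with a median of 7.69 in vehicle rats and from 7.48 to 9.42 with a median of 8.09 in treated rats. All 10 treated rats lay above the vehicle mean of their sex, and the difference of 0.70 (SE 0.30) was alike in females (0.67) and males (0.73). miR-347 ranged from 6.54 to 9.23 in vehicle and from 7.67 to 10.61 in treated rats, a difference of 0.93 (SE 0.39). miR-324-5p ranged from 6.29 to 8.36 and from 7.48 to 9.17, a difference of 0.64 (SE 0.27).

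The remaining higher miRNAs were dim. miR-3573-3p had the largest difference of the 10 at 0.999 (SE 0.44), and its values ran from 3.64 to 5.41 in vehicle rats and from 3.79 to 7.79 in treated rats. Its wide treated range came from female replicate 3 at 7.79 and male replicate 2 at 7.11. miR-3593-3p differed by 0.66 (SE 0.28) around a mean of 5.33. miR-3085 differed by 0.57 (SE 0.23) and did not overlap in females, at 3.45 to 3.73 with vehicle and 3.79 to 5.61 with treatment. miR-3562 had the smallest p of the comparison (0.0173 by limma, unadjusted) with a difference of only 0.34 (SE 0.13). It ran from 3.31 to 4.06 in vehicle rats and from 3.47 to 4.19 in treated rats, close to the lowest values of the table, where differences are compressed.

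Without the 4 arrays of low median, all 20 miRNAs named for both sexes kept their sign, and 12 of the 20 differences moved by more than 1.5 times. miR-451 (-1.73), miR-223 (-0.55), miR-3562 (0.35), miR-743a (0.46) and miR-16 (-0.29) were among the 8 that did not. Of those that moved, miR-361 went to 0.44, miR-347 to 0.61, miR-324-5p to 0.31, miR-3573-3p to 0.54, miR-3593-3p to 0.33 and miR-3085 to 0.30.

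Among the other lower miRNAs, miR-335, which lies in an intron of the imprinted gene Mest and is studied in fat tissue, ranged from 3.88 to 9.24 with a median of 5.73 in vehicle rats. In treated rats it ranged from 3.60 to 6.18 with a median of 4.93. In 9 of 10 treated rats it lay below the vehicle mean of their sex. The difference was -1.10 (SE 0.57, limma adjusted p = 0.804), -0.66 without the arrays of low median, and the single highest vehicle value (9.24) belonged to female replicate 2, 1 of those arrays.

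miR-16, a bright miRNA that restrains cell cycle genes, was 12.55 ± 0.66 in vehicle and 12.20 ± 0.61 in treated rats (SD, n = 10 each), a difference of -0.36 (SE 0.24, limma adjusted p = 0.855). miR-329 of the Dlk1-Dio3 cluster differed by -0.70 (SE 0.48), from 0.18 in females and -1.58 in males. The other members of the lower group, miR-667*, miR-207 and miR-340-3p, had means between 3.13 and 4.32 in every treatment and differences between -0.38 and -0.34. For miR-207 all 10 treated rats lay below the vehicle mean of their sex, but a single vehicle male at 5.34 made much of the difference, which was -0.13 without that rat.

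Females and males were also compared with their own vehicle groups. In females 0 of 301 miRNAs (0%) passed the adjusted threshold and 13 (4.32%) had an unadjusted p under 0.05, all higher. In males 0 (0%) passed and 7 (2.33%) had an unadjusted p under 0.05, 4 higher (1.33%) and 3 lower (0.997%). The difference of the effect between the sexes, tested directly, gave 0 (0%) adjusted and 9 (2.99%) unadjusted, 4 of them with a higher (1.33%) and 5 with a lower (1.66%) effect in males. Across the 301 miRNAs the female and male differences had the same sign in 147 (48.8%), and their correlation was r = -0.08 (Spearman's rho -0.09). These are descriptions across miRNAs measured on the same arrays, and miRNAs are not independent of each other.

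let-7e, a member of a family known for promoting differentiation and restraining growth genes, showed the clearest separation in females. It read 11.07, 11.26, 11.02, 10.81 and 11.04 log2 units with vehicle and 11.73, 11.78, 11.85, 11.86 and 11.63 with treatment. All 5 treated females lay above all 5 vehicle females, including the arrays of low median. In males the values were 11.08, 11.36, 11.98, 11.35 and 11.54 with vehicle and 11.18, 11.15, 11.38, 11.28 and 11.58 with treatment, and they overlapped. The female difference was 0.73 (SE 0.17, limma adjusted p = 0.166) and 0.83 without the arrays of low median. The male difference was -0.15 (SE 0.17), and 0.12 after quantile normalization. The test of the sex difference gave -0.87 (SE 0.25, limma adjusted p = 0.681).

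No overlap within females was found for let-7e and miR-3085 on the higher side (0.664% of 301) and for miR-207 on the lower side (0.332%). let-7e was the only bright miRNA of the 3. Its relatives had smaller female differences or larger errors: miR-98, which has a let-7 seed, 0.99, let-7d 0.50, let-7a 0.38 and let-7i 0.08. Over both sexes the vehicle mean of miR-98 was 8.5. Of the 13 let-7 strands, 11 were positive in females and 1 in males, with medians of 0.35 and -0.31. After centring each array on its median the female count was 8 with a median of 0.22, after quantile normalization it was 10, and the male counts were 1 and 3. Without the arrays of low median the female count was 8 and the median 0.09. In males the minor strand let-7b* read 7.78 in vehicle replicate 1 and 3.08 to 3.48 on the other male arrays. Without that replicate let-7b*, let-7a-1* and let-7d* turned positive, and 4 of 13 male values were positive with a median of -0.13. None of the 13 passed the adjusted threshold in either sex. let-7d gave a sex difference of -0.98 (SE 0.37, limma adjusted p = 0.781).

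Other miRNAs named for females were miR-290, known from early mouse embryos, with a difference of 0.93 (SE 0.36) from 5.85 ± 0.71 to 6.78 ± 0.56 (SD, n = 5 each), and on the lower side miR-21 and miR-29b. miR-21, often raised in injured and growing tissue, read 13.69, 13.57, 15.46, 15.16 and 14.24 in vehicle females and 14.39, 14.13, 13.35, 13.29 and 11.91 in treated females. The groups overlapped, the difference was -1.01 (SE 0.49, limma adjusted p = 0.795) and -0.64 without treated replicate 5, the lowest at 11.91, and in males it was 0.11. miR-29b, which represses collagen genes, differed by -0.66 (SE 0.36) in females and 0.32 in males.

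In males, miR-743a, from a cluster on the X chromosome known from testis, read 3.06, 3.09, 3.18, 3.22 and 3.29 with vehicle and 3.91, 4.15, 3.57, 4.29 and 3.67 with treatment. All 5 treated males lay above all 5 vehicle males, at levels close to the lowest value of the table (2.69). The difference was 0.75 (SE 0.20, limma adjusted p = 0.351) against -0.01 in females. When all 40 day 3 arrays shared the estimate of the spread, miR-743a passed in males (limma adjusted p = 0.0427), the only miRNA called in males under any alternative. Its neighbour miR-878 behaved alike in value, at 3.11 to 3.50 with vehicle and 3.60 to 4.24 with treatment, a difference of 0.60 (SE 0.20). No overlap within males was found for these 2 miRNAs on the higher side (0.664% of 301) and for 0 on the lower side (0%).

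miR-202* was the other miRNA named higher in males, with a difference of 1.26 (SE 0.41, limma adjusted p = 0.825) from 3.78 ± 0.50 to 5.04 ± 0.70 (SD, n = 5 each). On the lower side, miR-329 differed by -1.58 (SE 0.64), miR-344a-3p by -1.12 (SE 0.51) and miR-328a by -1.02 (SE 0.45). For miR-344a-3p, vehicle replicate 3 read 6.66 and the other vehicle males 3.63 to 4.97, and the difference without it was -0.61. miR-328a had a difference of 0.98 in females, so that its sex difference was -1.99 (SE 0.63, limma adjusted p = 0.781), the largest of those named. miR-126, the endothelial miRNA, gave a sex difference of 1.60 (SE 0.69, limma adjusted p = 0.781), with -0.75 in females and 0.85 in males.

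The epithelial and the muscle list had medians of different sign in females and males. The direct test of the sex difference gave 0 members of either list at an unadjusted p under 0.05. All 13 epithelial strands had a negative difference in females (median -0.41) and all 13 a positive difference in males (median 0.72), beside 173 and 159 positive of 301. Centring, quantile normalization and the array median as a covariate each left these counts at 0 and 13 of 13 positive. Leaving out single arrays moved the values more. Without vehicle male replicate 3 the male median was 0.26 with 11 of 13 positive, and miR-203 (9.39 on that array, 11.43 to 13.25 in the other vehicle males) and miR-96 turned negative. Without the arrays of low median the female median was -0.86. With 1 female array left out it ran from -0.76 (vehicle replicate 5) to -0.11 (treated replicate 2), with 0 to 3 of 13 positive. miR-200c differed by -0.38 in females and 1.16 in males, and miR-141, from the same transcript, by -0.25 and 1.27. For miR-141 the vehicle males read 11.62, 13.20, 8.88, 11.68 and 10.49 and the treated males 12.69, 13.14, 11.84, 13.08 and 11.46. Vehicle male replicate 3 was the lowest, and the groups overlapped. Against the same vehicle males, the epithelial median was 0.40 at pioglitazone 16 (11 of 13 positive) and 0.74 with rosiglitazone (12 of 13). In females it was 0.07 (8 of 13) and 0.13 (7 of 13).

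The muscle list ran the other way. All 9 strands were positive in females (8 after centring or with a covariate for the array median) with a median of 1.20, and 3 of 9 were positive in males with a median of -0.32. Without the arrays of low median 8 were positive in females and the median was 1.34, and without treated female replicate 2 it was 0.79 with 7 positive. The male median turned positive without single arrays: it was 0.15 without vehicle replicate 5, 0.11 without treated replicate 2 and 0.13 without treated replicate 4, with 6 of 9 positive each time. It was -0.61 with 1 positive without vehicle replicate 1, and -0.12 with 3 positive without vehicle replicate 3. The lowest was -0.62 with 2 positive, without treated replicate 3. miR-1, which is typical of muscle, read 4.31, 9.01, 5.43, 5.73 and 10.56 in vehicle females and 9.66, 11.31, 7.86, 8.89 and 11.15 in treated females. Its female difference of 2.77 (SE 1.25, limma adjusted p = 0.795) was the largest of the list, and the groups overlapped. In males miR-1 differed by -0.35. miR-143 ranged from 7.36 to 16.87 in vehicle females and from 10.05 to 16.24 in treated females, a difference of 2.01 (SE 1.61).

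The summed muscle level had a median of 10.73 log2 units (10.43 to 16.97) in vehicle females and 14.52 (10.89 to 16.48) in treated females. In vehicle males it was 14.78 (11.27 to 16.29) and in treated males 14.28 (10.43 to 15.65). The summed epithelial level had medians of 15.64 and 14.70 in vehicle and treated females and 15.14 and 15.43 in vehicle and treated males. The muscle list therefore varied over a range of several log2 units within each group, more than any difference between group medians, and its part in the other results was not tested.

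The Dlk1-Dio3 cluster, an imprinted region whose miRNAs are expressed in muscle, nerve and connective tissue, had 24 of 31 strands positive in females (18 after centring or quantile normalization) with a median of 0.19, and 3 of 31 positive in males (5 after centring) with a median of -0.53. The female median was 0.05 after centring and 0.45, with 26 positive, without the arrays of low median, and ran from 0.04 (without treated replicate 4) to 0.55 (without vehicle replicate 5) with 1 female array left out. The male median was -0.17, with 6 positive, without vehicle replicate 3, and -0.66, with 1 positive, without vehicle replicate 1. Its most negative member over both sexes was miR-434 at -0.78 and its most positive miR-376a at 0.36. The fibroblast and mesenchymal list had 6 of 8 positive in females (3 without vehicle replicate 1) and 3 of 8 in males. Both strands of miR-126 were negative in females and positive in males.

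**Figure D4:**
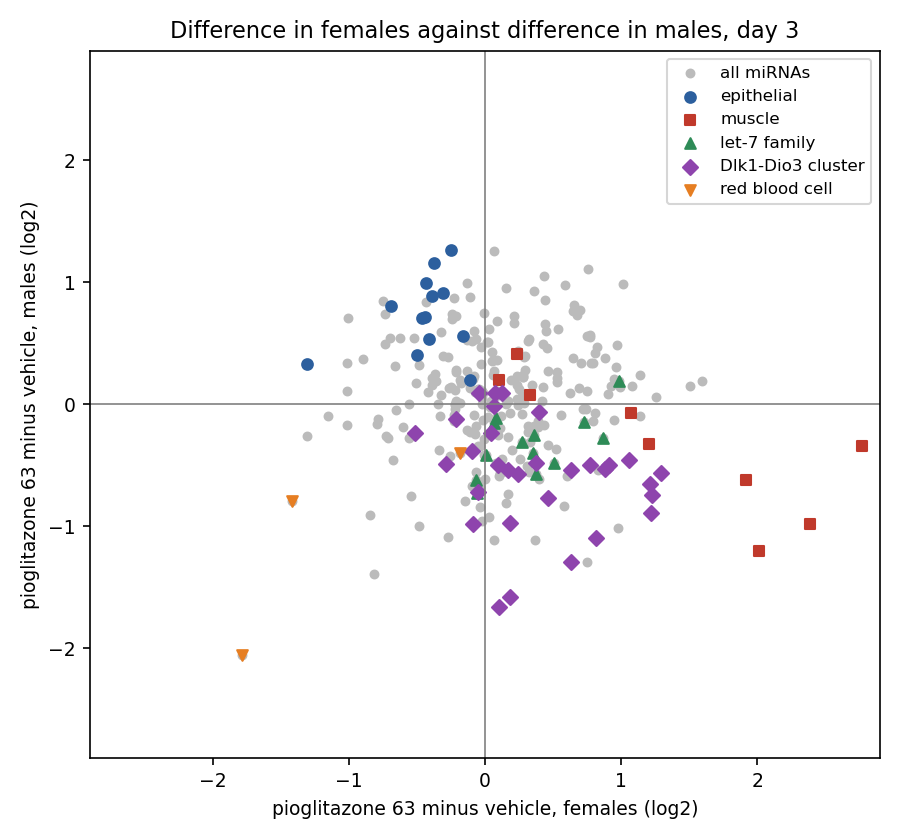
Treated minus vehicle difference (log2) in females (horizontal axis) against that in males (vertical axis) for all 301 miRNAs in grey, with the members of 5 lists in colour. Epithelial strands lie to the left and above 0 (11 of 13 above 0 in males without vehicle replicate 3), most muscle strands to the right, most Dlk1-Dio3 and let-7 strands to the right and below 0 (fewer of them in females after centring, 18 of 31 and 8 of 13, and 4 of 13 let-7 strands above 0 in males without vehicle replicate 1), and red cell strands in the lower left.

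Lists tied to the drug's target, to growth and to injury had medians between -0.31 and 0.17, beside 0.06 over all miRNAs. Of the miRNAs described to repress Pparg, the gene of the drug's receptor, miR-27a, miR-27b and miR-130a were bright, and miR-27b was 11.45 ± 1.33 in vehicle and 11.58 ± 0.58 in treated rats (SD, n = 10 each), a difference of 0.13 (SE 0.42, 95% interval -0.75 to 1.02). miR-27a differed by 0.01 and miR-130a by 0.07. miR-130b was dim, at 4.78 in vehicle and 5.03 in treated rats, and differed by -0.21 in females and 0.72 in males. Of the 20 strands linked to fat cell differentiation, 10 were positive and 10 negative, with a median of -0.03, and they ran from miR-335 at -1.10 to miR-378* at 0.58. miR-378, an intronic miRNA of the PPAR gamma coactivator gene Ppargc1b, differed by 0.25, and miR-103 and miR-107, linked to insulin sensitivity, by 0.07 and -0.12.

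The miR-17 cluster and its paralogs, which promote proliferation, had 6 of 13 positive and a median of -0.05. The miR-15/16 cell-cycle family had 3 of 7 positive and a median of -0.31, which as the mean of the sexes ran from -0.53 without vehicle female replicate 1 to 0.02 without vehicle female replicate 3. The inflammation and injury list had 5 of 10 positive with a median of 0.10 (-0.08 without vehicle female replicate 1), its highest member being miR-222 at 0.89 and its lowest miR-21 at -0.45. The p53-responsive list had a median of 0.17 over 7 strands (0.04 without vehicle male replicate 3), with miR-34a at 0.26. The miR-29 family had a median of 0.00 over 5 strands, and both neural miRNAs were positive with a median of 0.30 (near 0 without vehicle female replicate 1). In all these lists 0 members passed the adjusted threshold and 0 had an unadjusted p under 0.05 over both sexes, beside 0% and 4.32% of all miRNAs.

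The lower pioglitazone dose at the same time was compared directly. Between 63 and 16 mg/kg/day, 0 of 301 miRNAs (0%) passed the limma test and 2 (0.664%) had an unadjusted p under 0.05, both lower at 63. The interval of the dose difference reached a median of 0.65 log2 units to either side, and 194 of 301 miRNAs were bounded within 1 log2 unit. Among the 160 miRNAs with a mean above 5, 78 were bounded that tightly. The 2 miRNAs lower at 63 were miR-494, of the Dlk1-Dio3 cluster, at -1.53 (SE 0.68), and miR-1949 at -1.11 (SE 0.49). Each had a limma adjusted p of 0.990. Against the shared vehicle rats miR-494 differed by 0.30 at 63 and by 1.83 at 16 mg/kg/day, and miR-1949 by 0.43 and 1.54.

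The comparisons of both doses and of rosiglitazone share the 10 vehicle arrays, so their values are set side by side only. miR-451 differed by -1.92 at pioglitazone 63, by -0.94 at pioglitazone 16 and by -0.19 with rosiglitazone at 10 mg/kg/day, a dose that is not matched to either. miR-181d differed by 0.65, 0.47 and 0.53 in the same order. miR-361 differed by 0.70, 0.75 and 0.54, and miR-335 by -1.10, -1.28 and -1.09. The direct tests of 63 against 16 for these miRNAs gave -0.98 (SE 0.88), 0.17 (SE 0.26), -0.04 (SE 0.29) and 0.18 (SE 0.50). For let-7e in females the values were 0.73, 0.12 and -0.41 in the same order. In males the muscle list had medians of -0.26 at pioglitazone 16 and -0.79 with rosiglitazone. The let-7 list had -0.32 and -0.45, and the Dlk1-Dio3 cluster -0.65 and -0.87. Each of these male medians had the sign it had at pioglitazone 63. Female medians in the same list order were 0.68 and 0.55, 0.05 and 0.00, and -0.19 and 0.56.

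At 90 days, which had its own 10 vehicle and 10 treated rats, 131 of 301 miRNAs (43.5%) had a difference of the same sign as at day 3, with r = -0.01 across miRNAs. The change of the effect from day 3 to day 90, tested directly, gave 0 calls (0%), with 22 (7.31%) at an unadjusted p under 0.05, of which 19 (6.31%) were lower at day 90. The smallest adjusted p, 0.060 by limma, was that of miR-181d. Its difference was 0.65 at day 3 and -1.07 at day 90 (-0.91 in females and -1.23 in males), a change of -1.72 (SE 0.41). After centring, the day 90 values of miR-181d were -1.14 in females and -0.65 in males. After quantile normalization they were -1.17 and -0.35. The call was sensitive to the setting, and miR-181d passed under some alternatives, for example when treated male replicate 2 of day 90 was left out (limma adjusted p = 0.00327). Without the arrays of low median its change was -0.90 (limma adjusted p = 0.813), and over the alternatives the adjusted p reached 0.906, after quantile normalization.

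miR-181b had a difference of 0.56 at day 3 and -0.60 at day 90, and the later minus the earlier was -1.16 (SE 0.36, limma adjusted p = 0.329). Of the 5 miR-181 strands, 4 had an unadjusted p under 0.05 for a lower effect at day 90, against 6.31% of all miRNAs. That count is for the values as deposited. Over all miRNAs, centring took the unadjusted count of this contrast from 22 to 7. The median difference of the family was 0.55 at day 3, with 4 of 5 positive, and -0.70 at day 90, with 0 of 5 positive. For each of the 4 major strands the mean of the sexes kept these signs after centring and after quantile normalization. The size in day 90 males depended on the scaling: centring moved miR-181b from -0.66 to -0.09 and miR-181a from -0.48 to 0.10. In day 90 females centring moved them from -0.53 to -0.77 and from -0.92 to -1.15. miR-451 differed by -0.08 at day 90 (0.09 after centring), from 1.28 in females and -1.45 in males, and the change from day 3 was 1.84 (SE 1.28, limma adjusted p = 0.786). For the let-7e difference in females, day 90 gave -0.16.

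At 28 days the vehicle males stood apart from other vehicle groups, with miR-207 at 7.21 ± 2.75 (SD, n = 4) against 3.60 ± 0.97 (SD, n = 5) at day 3, so only females are given for that time. Treated minus vehicle females at day 28 differed by -2.23 for miR-451, 0.00 for let-7e, -0.40 for miR-181b and 1.39 for miR-3085. The female differences of day 3 and day 28 had the same sign in 166 of 301 miRNAs (55.1%), with r = 0.27 across miRNAs.

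**Figure D5:**
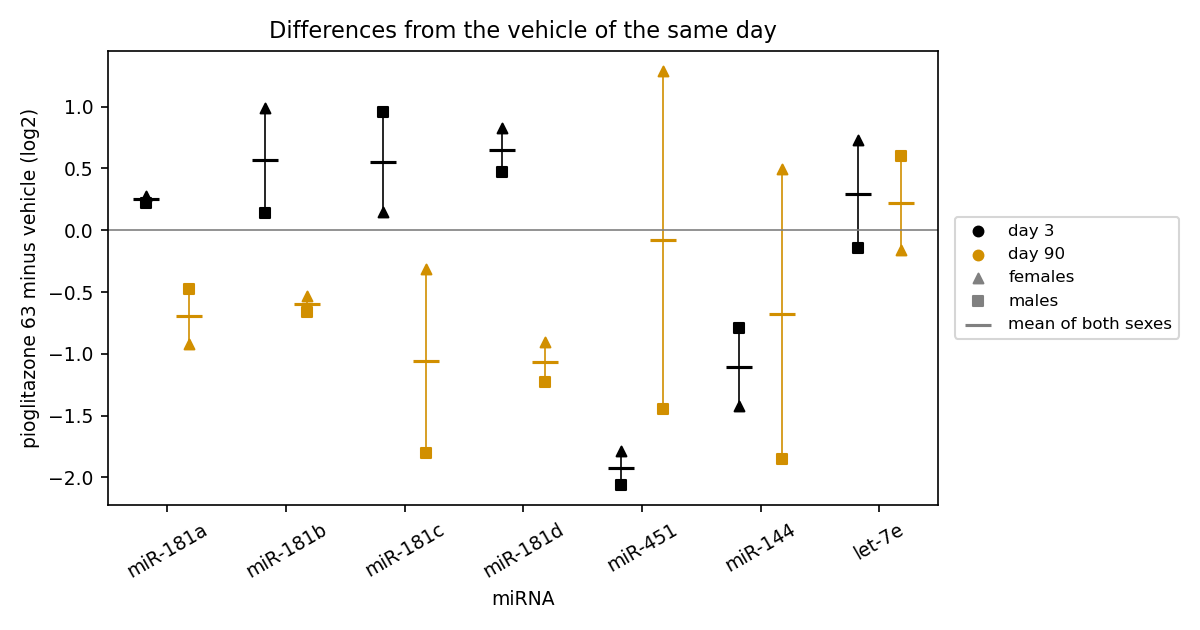
Treated minus vehicle difference (log2, vertical axis) of the 4 miR-181 miRNAs, miR-451, miR-144 and let-7e at day 3 (black) and day 90 (orange), each against the vehicle rats of the same day, with triangles for females, squares for males and a dash for their mean. The miR-181 values as deposited lie above 0 at day 3 and below 0 at day 90 in both sexes. Some signs depended on the setting. After centring, miR-181a in males at day 90 was at 0.10. After quantile normalization, miR-181c in females at day 3 was at -0.32. With miR-181a-1* counted, 3 of the 5 family strands were above 0 in day 3 females without the arrays of low median. The count was also 3 without vehicle female replicate 1. The sexes of miR-451 and miR-144 lie on opposite sides of 0 at day 90.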

How the data were processed

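The authors deposited log2 intensities of 301 rat miRNAs from 1-colour Agilent arrays (Cy3). RMA and limma are named in the submitters' processing notes, with no version stated. The deposited log2 values do not have the same distribution on every array (medians from 3.74 to 5.66 at day 3), so which steps were applied is not known. Background correction, filters and build were not given in the sources used here, and the array table holds no detection calls or scan information. Values were used as deposited, without further scaling.

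limma 3.58.1 in R 4.3.3 fitted treatment plus sex to the 20 arrays. Sex-specific effects and their difference came from 4 group means, the dose test from 40 day 3 arrays and the time test from 40 arrays of days 3 and 90. Tests were two-sided, with Benjamini-Hochberg adjustment over 301 miRNAs within each of 6 contrasts and a threshold of 0.05. Adjusted p-values in the text are limma's. The number of arrays limits the precision. The fits were tested on simulated data. Summed list levels are log2 of the sum of unlogged members.

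The text names the 10 higher and 10 lower miRNAs of smallest p for both sexes, 3 each way for females, males and their difference, 2 for dose and time, the 10 brightest, and list members as examples. miRNAs singled out beyond that rule were chosen after their values were seen. Numbered hairpin copies counted as list members. The comparison and lists were chosen with earlier results of these data known. Deviations of same-numbered arrays correlated from -0.586 to 0.540, with 4 of 10 pairs over 0.1. The numbers were not treated as pairs in the main fits. These mixed correlations cannot show whether same-numbered arrays shared a processing step. No 2 arrays were identical (highest correlation 0.993). Alternatives were centring, quantile normalization, the array median as covariate, brighter miRNAs only, a replicate block, robust variance, wider fits, leaving out each array and, added after seeing the data, leaving out arrays with a median below 5 and, for the lists, each array.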

Additional observations from a re-analysis of the deposited data

Results flagged for a closer look

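Among the 132 sets of 5 arrays examined, 9 (6.82%) held an array far from the other 4, where chance gives about 5%. The sets were those of the 32 named miRNAs and of the array medians in each group. In vehicle females, replicate 1 read 6.29 for miR-324-5p while the next array read 7.85, replicate 4 read 5.41 for miR-3573-3p (next 4.07), and replicate 3 read 4.08 for miR-743a (next 3.47). In treated females, replicate 4 read 5.63 for miR-344a-3p (next 3.52).

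In vehicle males, replicate 1 stood apart for both miR-207, at 5.34 against 3.20 for the next array, and miR-667*, at 3.26 against 4.19. It also lay more than 2 log2 units above all 19 other arrays for 16 of the 301 miRNAs, among them miR-211 (8.07) and let-7b* (7.78). In treated males, replicate 2 was highest for both miR-181b (7.73, next 6.92) and miR-181d (7.15, next 6.10), and replicate 4 was highest for miR-29b (13.98, next 13.41).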

How the results depend on the processing

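No miRNA was called over both sexes, in females, between the sexes or between doses under any alternative run, including each array left out (lowest adjusted p by limma 0.539, 0.178, 0.0557 and 0.889 with an array left out). In males, 1 miRNA (miR-743a, adjusted p = 0.0427) was called with all day 3 arrays in 1 fit and 0 otherwise. For the change from day 3 to day 90, the array median as a covariate gave 2 calls (miR-181a and miR-181d, adjusted p = 0.0389 each), brighter miRNAs only gave 1 (miR-181d, 0.0496), and leaving out an array gave 0 to 1. The difference of array medians ranged from -0.122 to 0.119 with an array left out, on both sides of 0. With the replicate block 0 miRNAs were called in every contrast, and 13 over both sexes had an unadjusted p under 0.05.

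Unadjusted counts moved more: 3 (centred) to 17 (all day 3 arrays) against 13 over both sexes, 7 to 31 against 13 in females, 1 to 20 against 7 in males, 4 to 30 against 9 between sexes, 1 to 8 against 2 between doses, and 7 to 38 against 22 between times. Centring moved the median of all miRNAs from 0.08 to -0.05 in females, from -0.12 to 0.08 between sexes and from -0.09 to 0.11 between times. Centring subtracts each array's median, so it moves every difference by the gap between the mean array medians of the groups. At day 3 these means were 4.98 with vehicle and 5.11 with treatment in females, and 5.49 and 5.42 in males. Why array medians differed, and what moved the unadjusted counts, was not tested. Named miRNAs kept their sign in the contrasts they were named for under every alternative run. The 5 rats per sex and group and the floor of the array limit what could be detected.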
